A study of Mus musculus with 12 samples.

Results

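The 10 genes described here encode the machinery that couples the membrane signal of a skeletal muscle fibre to calcium release and the proteins that store and recover that calcium. They were chosen by name, as the rows of the FPKM table whose gene identifier maps to Ryr1, Cacna1s, Cacng1, Cacnb1, Stac3, Trdn, Casq1, Casq2, Atp2a1 and Atp2a2. That rule reads no measured value, but the list was drawn up with earlier results of these data known. All 10 were found among the 46983 genes of the table, and all 10 were among the 18023 genes that reached 0.1 FPKM in at least 3 libraries and were tested. FPKM counts the fragments of a gene relative to the length of its transcript and to all mapped fragments of the library, so levels can be set side by side between genes.

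The RNA came from C2C12 cells, a mouse myoblast line that fuses into myotubes when growth factors are withdrawn. WT cells are named in the sample titles for the PiggyBac vector PB-IP, are labelled wild type and are also called uninduced in the series' own text. PPARγ/+ cells carried PB-IP with the coding sequence of PPARγ, a nuclear receptor known as a driver of fat cell formation, after transposition and drug selection. Each cell type was collected on 0d, before differentiation, and on 5d, which gives the groups WT_0d, WT_5d, PPARγ/+_0d and PPARγ/+_5d with 3 libraries each and 12 in all. The study calls them biological replicates and the labels do not say that they were separate cultures, so p-values measure the spread between these libraries, which may be technical.

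In a skeletal muscle fibre, Cacna1s forms the voltage-sensing pore of the calcium channel of the T-tubule, with Cacnb1 and Cacng1 as its beta and gamma subunits and Stac3 as an adaptor that the channel needs to reach and work at the junction. The voltage sensor opens Ryr1, the release channel of the sarcoplasmic reticulum. Triadin, from Trdn, ties Ryr1 to calsequestrin, the store's calcium-binding protein, of which Casq1 is the main skeletal form and Casq2 the form of heart and slow fibres. The pumps Atp2a1, the form of fast fibres, and Atp2a2, the form of heart and slow fibres that most other cells also use, return calcium to the store.

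The promoters of the calsequestrin genes are shown because Casq1 was the only gene of the 10 that passed the test between the cell types on 5d and Casq2 is its closest relative. The sequences are the 250 bases before the start site in RefSeq (GRCm38.p6), Casq1 at chr1:172219896-172220145 on the minus strand and Casq2 at chr3:102086165-102086414 on the plus strand, read 5′ to 3′ along the gene, with matches to the E-box CANNTG, the motif that myogenic factors such as MyoD bind, and to the MEF2 site in capitals.
Casq1: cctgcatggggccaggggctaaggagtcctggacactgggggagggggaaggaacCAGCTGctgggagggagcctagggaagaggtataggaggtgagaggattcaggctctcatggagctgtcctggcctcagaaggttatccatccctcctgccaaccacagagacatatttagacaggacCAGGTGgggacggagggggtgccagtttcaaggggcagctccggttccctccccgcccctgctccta
Casq2: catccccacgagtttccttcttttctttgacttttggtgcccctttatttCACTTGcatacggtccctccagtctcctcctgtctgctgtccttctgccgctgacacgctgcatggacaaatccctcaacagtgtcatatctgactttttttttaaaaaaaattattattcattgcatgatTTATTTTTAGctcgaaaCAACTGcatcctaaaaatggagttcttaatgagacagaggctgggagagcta
In Casq1, CAGCTG began 195 bases and CAGGTG 67 bases before the start site. In Casq2, CACTTG began 200 bases, the MEF2 match 69 bases and CAACTG 52 bases before it. RefSeq promoter windows of 300 bases, which add the first 50 bases of the gene, were given for 6 of the 10 genes in 7 entries, Cacnb1 having 2. Searched on both strands, CANNTG was in 5 of the 7 entries against 72.3% of 32851 mouse promoters, a share close to that background. CAGCTG, which every count of CANNTG includes, was in the entries of Atp2a1, Cacna1s and Casq1 against 16.3% of all promoters. The MEF2 site was in that of Casq2 alone against 3.19%. The CArG box, the site of serum response factor, was in none of the 7 against 1.63% of all promoters, which says only that these letters are not in these windows. Cacng1, Stac3, Trdn and Atp2a2 had no entry.

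All 10 are protein-coding genes with these positions in GRCm38. The voltage sensor has Cacna1s (ENSMUSG00000026407) at chr1:136052750-136119822 on the plus strand and Cacnb1 (ENSMUSG00000020882) at chr11:98001508-98023034 on the minus strand, and Cacng1 (ENSMUSG00000020722) at chr11:107703218-107716522 on the minus strand and Stac3 (ENSMUSG00000040287) at chr10:127501686-127508823 on the plus strand. Release rests on Ryr1 (ENSMUSG00000030592) at chr7:29003344-29125179 on the minus strand and Trdn (ENSMUSG00000019787) at chr10:33080554-33476709 on the plus strand. The store has Casq1 (ENSMUSG00000007122) at chr1:172209894-172219868 on the minus strand and Casq2 (ENSMUSG00000027861) at chr3:102086415-102146514 on the plus strand, and the pumps are Atp2a1 (ENSMUSG00000030730) at chr7:126445858-126463108 on the minus strand and Atp2a2 (ENSMUSG00000029467) at chr5:122453513-122502225 on the minus strand.

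The libraries held between 18581300 and 26073154 mapped fragments, as implied by the steps between low FPKM values. Pparg, the overexpressed gene, lay between 3.12 and 7.56 FPKM in the 6 WT libraries and between 27.98 and 92.69 FPKM in the 6 PPARγ/+ libraries. Myog, the factor that marks differentiating myoblasts, was at 271, 215 and 90.0 FPKM in WT_5d and between 78.8 and 90.3 FPKM in PPARγ/+_5d. WT_5d replicate 3 therefore stood apart from the other WT_5d libraries and lay beside the PPARγ/+_5d libraries. The summed level of the 6 myotube markers was 896 FPKM in WT_5d replicate 3, 3973 FPKM at most in WT_5d and 923 to 1086 FPKM in PPARγ/+_5d. Among WT_0d libraries, replicate 2 was the highest in Myog, at 15.7 FPKM against 1.47 and 2.69 FPKM in the others. Values without them are given beside the results they bear on. The 6 adipocyte markers summed to 8.42 to 14.1 FPKM in WT_5d and to 30.2 to 77.5 FPKM in PPARγ/+_5d, with Lep at 0 in every library and Cidec at 0 in WT cells. Of the 5 heart muscle markers, Nppa and Myl7 were at 0 in the WT libraries and the sum stayed at or below 8.14 FPKM in every group. The other 3, Tnni3, Myl2 and Myh6, each reached 1 FPKM in at least 1 WT_5d library. In bulk RNA, fewer myotubes and less RNA of a gene per myotube cannot be told apart.

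Nearly the whole calcium release machinery rose from 0d to 5d in both cell types. In WT cells 9 of the 10 genes rose, at an unadjusted p of at most 0.05 and at least 2-fold, against 8.94% of all genes tested, and Atp2a2 did not reach 2-fold. In PPARγ/+ cells the same 9 genes rose, against 9.11%. The median log2 change was 3.92 in WT and 3.69 in PPARγ/+ cells, where the median over all genes was −0.081 and −0.095. Rescaling by median ratios moved these 2 medians over all genes to 0.023 and 0.021 and left both counts at 9. The libraries of 5d lay wholly above those of 0d for 8 of the 10 genes in WT cells, against 20.2% of all genes, and for 10 of 10 in PPARγ/+ cells, against 23.8%. Log2 changes are on the scale of log2(FPKM + 0.1), which understates the change of low genes, and adjusted p-values are Benjamini-Hochberg values from limma.

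**Figure D1:**
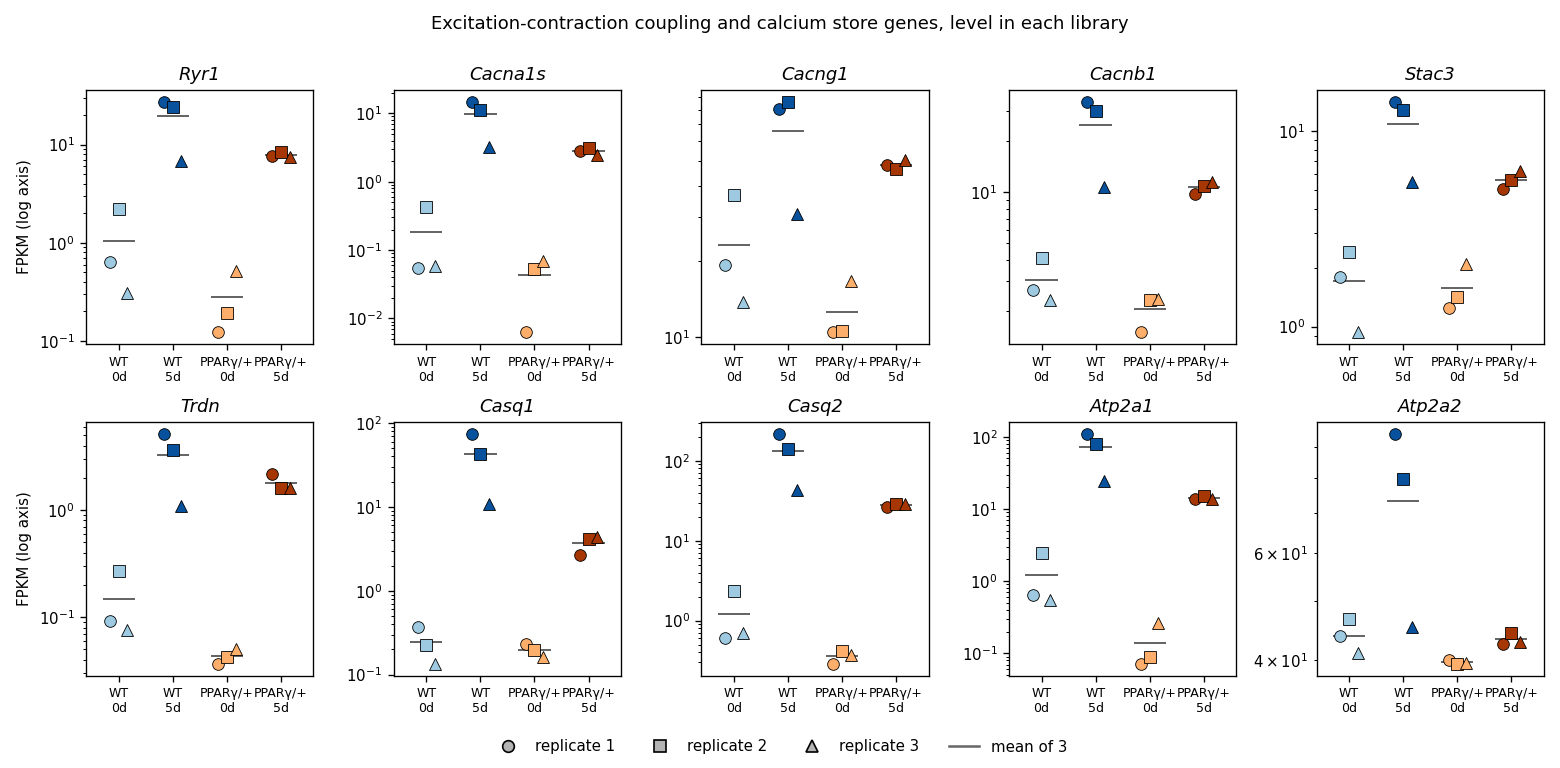
Level of each of the 10 genes in FPKM on a log axis (each panel has its own range) in the 4 groups, with a point per library, its shape giving the replicate number, and a bar at the mean of 3. WT_5d replicate 3 lies below replicates 1 and 2 of its group in every panel. The libraries of 5d lie above those of 0d for every gene in PPARγ/+ cells. In WT cells they do so for all genes but Cacng1 and Atp2a2.

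Of the voltage sensor, Cacna1s was nearly absent before differentiation. It was at 0.0551, 0.430 and 0.0593 FPKM in WT_0d and at 14.8, 11.1 and 3.20 FPKM in WT_5d. In PPARγ/+ cells it was at 0.00626, 0.0527 and 0.0699 FPKM on 0d, which are 1, 9 and 10 fragments, and at 2.83, 3.09 and 2.48 FPKM on 5d. No library of 0d reached any of 5d, and all 3 PPARγ/+_5d libraries lay below all 3 WT_5d libraries. The log2 change from 0d to 5d was 5.12 (SE 0.71, adjusted p = 0.002691) in WT and 4.36 (SE 0.23, adjusted p = 3.371e-05) in PPARγ/+ cells.

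Cacnb1, the beta subunit, was already at 2.31 to 4.11 FPKM in WT_0d and reached 34.2, 30.1 and 10.8 FPKM in WT_5d. It went from between 1.49 and 2.34 FPKM to 9.73, 10.9 and 11.5 FPKM in PPARγ/+ cells, so that WT_5d replicate 3 lay within the PPARγ/+_5d range. The log2 change was 2.89 (SE 0.46, adjusted p = 0.004432) in WT and 2.35 (SE 0.18, adjusted p = 0.0001209) in PPARγ/+ cells. Stac3, the adaptor, rose in both, with a log2 change of 2.57 (SE 0.46, adjusted p = 0.006735) in WT and 1.79 (SE 0.19, adjusted p = 0.0004607) in PPARγ/+ cells. Its libraries reached 14.1, 12.8 and 5.46 FPKM in WT_5d and 5.03, 5.60 and 6.24 FPKM in PPARγ/+_5d, which overlap.

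Cacng1, the gamma subunit, was the member of the voltage sensor with the highest level in myoblasts. It was at 19.3, 36.9 and 13.8 FPKM in WT_0d and at 80.3, 86.2 and 30.8 FPKM in WT_5d. The groups overlapped, because WT_0d replicate 2 lay above WT_5d replicate 3. Its log2 change of 1.48 in WT cells (SE 0.50) passed the unadjusted threshold and had an adjusted p of 0.06097. The call was lost when WT_0d replicate 1 or 3 or WT_5d replicate 1 or 2 was left out and when no filter on low genes was set (adjusted p = 0.1596), and the adjusted p ran from 0.00622 to 0.184 over the alternatives. In PPARγ/+ cells the gene rose from 10.4 to 16.7 FPKM on 0d to 46.5 to 50.5 FPKM on 5d, with a log2 change of 1.97 (SE 0.18, adjusted p = 0.0002354).

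Ryr1, the release channel, was at 0.637, 2.21 and 0.312 FPKM in WT_0d and at 27.4, 24.4 and 6.76 FPKM in WT_5d. In PPARγ/+ cells it was at 0.123, 0.192 and 0.521 FPKM on 0d and at 7.63, 8.31 and 7.48 FPKM on 5d. WT_5d replicate 3 was thus the lowest of the 6 libraries of 5d. The log2 change was 4.23 (SE 0.77, adjusted p = 0.007249) in WT and 4.52 (SE 0.36, adjusted p = 0.0001454) in PPARγ/+ cells. Trdn, its luminal partner, was the lowest of the 10 genes on 5d per length, with 5.18, 3.63 and 1.09 FPKM in WT_5d and 2.17, 1.62 and 1.61 FPKM in PPARγ/+_5d. It started between 0.0765 and 0.272 FPKM in WT_0d and between 0.0363 and 0.0507 FPKM in PPARγ/+_0d, and its log2 change was 3.62 (SE 0.60, adjusted p = 0.0051) and 3.72 (SE 0.19, adjusted p = 3.178e-05).

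The calsequestrins had the largest ratios of 5d to 0d means in WT cells among the 10 genes. Casq1 was nearly absent on 0d in both cell types, at 0.370, 0.224 and 0.133 FPKM in WT_0d and 0.231, 0.197 and 0.164 FPKM in PPARγ/+_0d, which are 6 to 14 fragments per library. On 5d it was at 74.8, 42.8 and 10.8 FPKM in WT cells and at 2.67, 4.12 and 4.33 FPKM in PPARγ/+ cells. The lowest WT_5d library still lay above every PPARγ/+_5d library. Mean Casq1 on 5d was 177 times its 0d mean in WT cells and 18.8 times in PPARγ/+ cells. The log2 change was 6.64 (SE 0.70, adjusted p = 0.001001) in WT and 3.65 (SE 0.22, adjusted p = 5.534e-05) in PPARγ/+ cells.

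Casq2 was at 0.603, 2.36 and 0.695 FPKM in WT_0d and at 218, 141 and 42.8 FPKM in WT_5d. In PPARγ/+ cells it was at 0.285, 0.421 and 0.368 FPKM on 0d and at 26.5, 28.4 and 28.8 FPKM on 5d. It was the member with the highest mean level in WT_5d, 134 ± 88.0 FPKM (SD, n = 3). In that group the 5 heart muscle markers summed to 0.409 to 8.14 FPKM, with Nppa and Myl7 at 0. The other 3, Tnni3, Myl2 and Myh6, each reached 1 FPKM in at least 1 WT_5d library. From 0d to 5d in WT cells 2 of these 3 were called higher, against 8.94% of all genes. The log2 change of Casq2 was 6.63 (SE 0.72, adjusted p = 0.001132) in WT and 5.94 (SE 0.12, adjusted p = 6.459e-06) in PPARγ/+ cells.

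Of the pumps, Atp2a1 rose at least 2-fold in both cell types and Atp2a2 in neither. Atp2a1 was at 0.638, 2.46 and 0.547 FPKM in WT_0d and at 111, 80.1 and 24.3 FPKM in WT_5d. In PPARγ/+ cells it was at 0.0707, 0.0882 and 0.263 FPKM on 0d and at 13.7, 15.03 and 14.0 FPKM on 5d. All PPARγ/+ libraries lay below all WT libraries of the same day. The log2 change was 5.81 (SE 0.73, adjusted p = 0.001858) in WT and 5.98 (SE 0.28, adjusted p = 2.625e-05) in PPARγ/+ cells. Its exons share 763 bases with those of Rabep2 on the opposite strand, which reached 5.56 FPKM at most, and whether the counting used strand is not given in the sources used here.

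Atp2a2 was at 43.8, 46.6 and 41.1 FPKM in WT_0d, the highest level of the 10 genes before differentiation. It was at 94.7, 79.6 and 45.4 FPKM in WT_5d, where replicate 3 lay within the range of WT_0d. In PPARγ/+ cells it was between 39.3 and 39.9 FPKM on 0d and between 42.5 and 44.3 FPKM on 5d, a small rise without overlap. The log2 change in limma was 0.67 in WT cells (SE 0.26, unadjusted p = 0.04015, adjusted p = 0.08999). It was 0.13 in PPARγ/+ cells (SE 0.043, unadjusted p = 0.02435, adjusted p = 0.05106), and both were under 2-fold. Without WT_0d replicate 2 and WT_5d replicate 3, a choice made after these libraries were seen, its log2 change in WT cells was 1.03 (adjusted p = 0.01025) and 10 of 10 genes passed. Over its alternatives the adjusted p in WT cells ran from 0.00252 to 0.235.

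The changes of the other 9 genes in WT cells were larger without WT_0d replicate 2 and WT_5d replicate 3, where 9.58% of all genes were called higher. Log2 changes were then 5.56 for Ryr1 (adjusted p = 0.004476), 6.36 for Cacna1s (adjusted p = 0.003522), 3.65 for Cacnb1, 3.28 for Stac3, 2.34 for Cacng1, 4.59 for Trdn, 7.42 for Casq1, 7.88 for Casq2 and 7.09 for Atp2a1, the adjusted p being 0.008663 or less for each. The ratio of 5d to 0d means was 234 for Casq1 and 277 for Casq2 in those libraries. Leaving out WT_5d replicate 3 alone gave 4.87 for Ryr1 and 7.43 for Casq1.

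**Figure D2:**
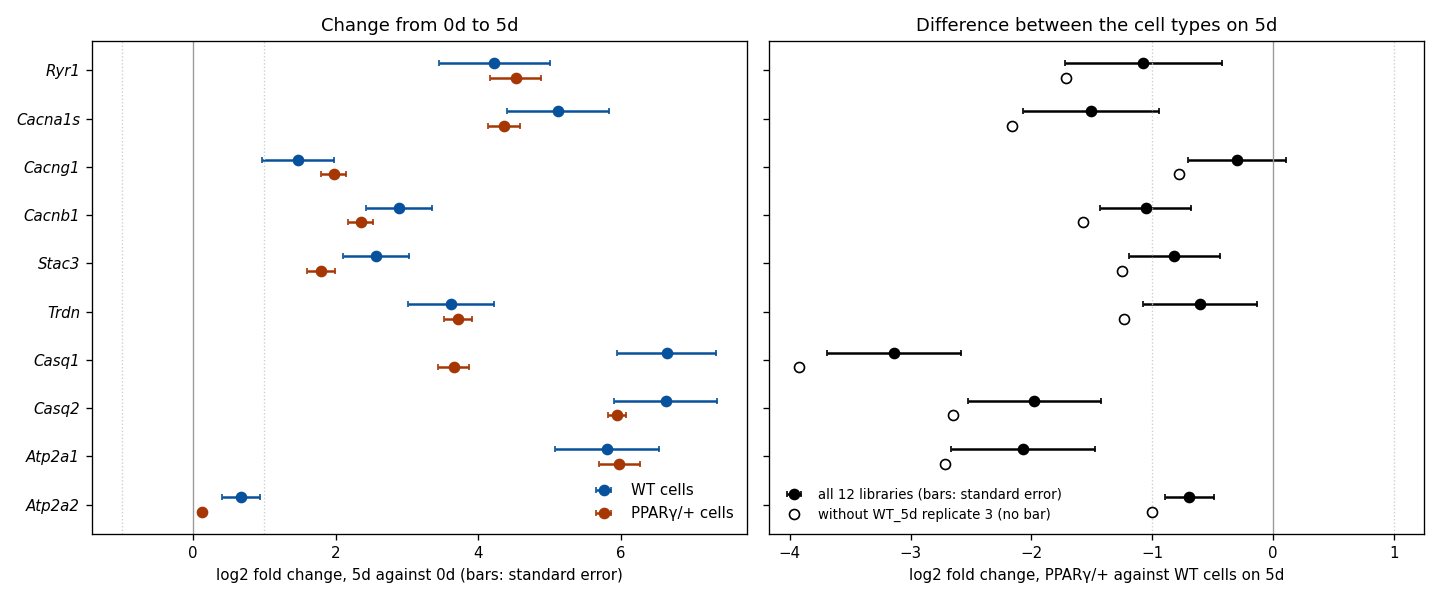
Log2 fold changes of the 10 genes on the log2(FPKM + 0.1) scale. On the left, 5d against 0d in WT and in PPARγ/+ cells with standard errors from limma, and on the right PPARγ/+ against WT cells on 5d with all 12 libraries and without WT_5d replicate 3. Casq1 is the gene whose change is furthest apart in the cell types (6.64 and 3.65), and every open point lies left of its filled point.

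Whether the rise differed between the cell types was tested on 12 libraries as an interaction term of day with cell type. None of the 10 genes passed an adjusted p of 0.05 in limma, against 0.76% of all genes, and 1, Casq1, had an unadjusted p under 0.05, against 12% of all genes. The interaction estimate of Casq1 was −2.99 on the log2 scale (SE 0.78, adjusted p = 0.1335), the smaller rise being in PPARγ/+ cells. Without WT_5d replicate 3 it was −3.78 (adjusted p = 0.00277) and Atp2a2 also passed, at −0.86 (adjusted p = 0.003302), with 2.92% of all genes. Over the alternatives the adjusted p of Casq1 ran from 0.00277 to 0.272 and that of Atp2a2 from 0.0033 to 0.667. Without both WT_0d replicate 2 and WT_5d replicate 3, a choice made after these libraries were seen, 5 genes passed, against 2.71% of all genes. They were Casq1 at −3.77, Casq2 at −1.93, Cacnb1 at −1.29, Atp2a2 at −0.91 and Cacna1s at −2.0001. For Ryr1, Trdn, Atp2a1 and Cacng1 the interaction estimates with all libraries were positive, from 0.096 to 0.50, all with an adjusted p of 0.7949 or more, and in that fit they were negative.

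On 5d all 10 genes had a lower fitted level in PPARγ/+ than in WT cells. Only Casq1 passed the test, with a log2 difference of −3.14 (SE 0.55, adjusted p = 0.01898), 1 of 10 genes where 0.533% of all genes were called lower. At an unadjusted p under 0.05 the count was 6 of 10, against 15.3% of all genes. Its mean was 42.8 ± 32.0 FPKM (SD, n = 3) in WT_5d and 3.71 ± 0.905 FPKM (SD, n = 3) in PPARγ/+_5d, an 11.5-fold difference. The adjusted p of Casq1 ran from 0.000127 to 0.176 over the alternatives. The call was lost without WT_5d replicate 1 (−2.54, adjusted p = 0.05388) or replicate 2 (−2.94, adjusted p = 0.08335), without any of the PPARγ/+_5d libraries (adjusted p = 0.06308 to 0.08124), and when only the 6 libraries of 5d were fitted (adjusted p = 0.1765).

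Casq2, Atp2a1, Atp2a2 and Cacna1s lay lower in PPARγ/+_5d with no overlap of libraries, which with Casq1 makes 5 of 10 genes against 8.31% of all genes, but did not pass. Their log2 differences were −1.97 (SE 0.55, adjusted p = 0.1117), −2.07 (SE 0.59, adjusted p = 0.1202), −0.69 (SE 0.20, adjusted p = 0.1223) and −1.51 (SE 0.56, adjusted p = 0.2302). Cacnb1 was at −1.06 (SE 0.37, adjusted p = 0.2072), Ryr1 at −1.07 (SE 0.65, adjusted p = 0.4694), Stac3 at −0.82 (SE 0.38, adjusted p = 0.3322), Trdn at −0.60 (SE 0.47, adjusted p = 0.5932) and Cacng1 at −0.30 (SE 0.41, adjusted p = 0.7725). For these 5 genes the libraries of the cell types overlapped through WT_5d replicate 3. The ratio of WT to PPARγ/+ means on 5d ran from 1.36 for Cacng1 to 11.5 for Casq1, with 5.04 for Atp2a1 and 4.81 for Casq2. Without WT_5d replicate 3 it ran from 1.72 for Cacng1 to 15.9 for Casq1.

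WT_5d replicate 3 decided most of these calls. It held 0.184 times the mean of replicates 1 and 2 for Casq1 and 0.521 times for Atp2a2, the ends of the range over the 10 genes. This library was singled out after its values were seen. It was the lowest of WT_5d for every member, so leaving it out enlarges the differences by construction. Without it 8 genes were called lower in PPARγ/+ cells, against 2.82% of all genes, namely Casq1, Atp2a1 (−2.72, adjusted p = 0.009139), Casq2 (−2.65, adjusted p = 0.004329), Cacna1s (−2.17, adjusted p = 0.01559), Cacnb1 (−1.58, adjusted p = 0.002863), Stac3 (−1.25, adjusted p = 0.03164), Trdn (−1.24, adjusted p = 0.03212) and Atp2a2 (−1.005, adjusted p = 9.517e-05). Over all alternatives the adjusted p of these 7 genes beside Casq1 reached 0.369 to 0.963 at the highest. When WT_5d replicate 1 was left out instead, 0 of the 10 genes were called. Without WT_5d replicate 3 the number of all genes called went from 199 to 796. The myotube markers and the Myog level given above moved with this library, the adipocyte markers were higher in PPARγ/+_5d as given above, and their part in the result was not tested.

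On 0d, with all 12 libraries, the fitted levels of all 10 genes were also lower in PPARγ/+ cells, and none passed the test in limma, against 1.96% of all genes. Casq2 and Atp2a1 had an unadjusted p under 0.05, against 21.3% of all genes. Atp2a1 came nearest, with a log2 difference of −2.24 (SE 0.59, adjusted p = 0.05177), and it passed without both WT_0d replicate 2 and WT_5d replicate 3 (−1.61, adjusted p = 0.01217), without WT_5d replicate 1 (adjusted p = 0.03827) and without WT_5d replicate 3 (adjusted p = 0.01408), whose spread enters the shared fit. Its adjusted p ran from 0.0122 to 0.322 over the alternatives. For Casq1 the log2 difference on this day was −0.15 (SE 0.55, adjusted p = 0.9162), with overlapping libraries at 6 to 14 fragments, a depth that could not show a small difference. Trdn, Casq2, Atp2a1 and Atp2a2 lay wholly below WT_0d, 4 of 10 genes against 13.1% of all genes. Without both WT_0d replicate 2 and WT_5d replicate 3 the differences were smaller in size for all genes but Casq1 and Stac3. That of Cacna1s went from −0.75 to −0.16, of Ryr1 from −1.37 to −0.68 and of Casq2 from −1.29 to −0.72. Casq1 was then at −0.16, and Stac3 went from −0.046 to 0.24. Myog and Myod1 were also lower on average in PPARγ/+_0d, at 1.65 ± 1.38 and 7.003 ± 2.41 FPKM, than in WT_0d, at 6.62 ± 7.89 and 13.8 ± 7.47 FPKM (SD, n = 3). The WT_0d mean of Myog was raised by replicate 2, at 15.7 FPKM. The other WT_0d libraries were at 2.69 and 1.47 FPKM, within the PPARγ/+_0d range of 0.603 to 3.22 FPKM. The part of Myog and Myod1 in the result was not tested.

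By mean level, 9 of the 10 genes had the order WT_5d, PPARγ/+_5d, WT_0d, PPARγ/+_0d from high to low. The first and second groups in that order did not overlap for Cacna1s, Casq1, Casq2 and Atp2a1. Over all genes, 8.31% lay wholly lower in PPARγ/+_5d than in WT_5d. The third and the fourth were apart for Trdn, Casq2 and Atp2a1. Over all genes, 13.1% lay wholly lower in PPARγ/+_0d than in WT_0d. Between the second and the third no library overlapped for any of the 9. The share of all genes with that last separation, or with this order of means, was not taken. Atp2a2 had the order WT_5d, WT_0d, PPARγ/+_5d, PPARγ/+_0d, in which only the last neighbours were apart.

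To see how the 10 genes stood beside the rest of the muscle program on 5d, each was set against 8 contractile genes, Acta1, Ckm, Myh3, Mylpf, Tnnc2, Tnnt3, Ttn and Neb, as its log2(FPKM + 0.1) minus their mean in the same library. Casq1 fell furthest behind them in PPARγ/+ cells. It stood at −0.56, −0.68 and −1.05 in WT_5d and at −2.54, −2.09 and −2.15 in PPARγ/+_5d, a difference of −1.49, and WT_5d replicate 3 stayed with the other WT libraries. Casq2 and Atp2a1 differed by −0.33 and −0.43, also without overlap. Relative levels of 7 genes were higher in PPARγ/+ cells, by 1.34 for Cacng1, 1.04 for Trdn, 0.95 for Atp2a2, 0.82 for Stac3, 0.59 for Cacnb1, 0.57 for Ryr1 and 0.13 for Cacna1s, of which only Cacna1s overlapped. The median over the 10 genes was 0.578. Against Myog alone that median was −0.033 and only 4 genes were higher, Cacng1 by 0.73, Trdn by 0.43, Atp2a2 by 0.34 and Stac3 by 0.21, while Ryr1 (−0.042), Cacnb1 (−0.024) and Cacna1s (−0.48) changed sign. Casq1 differed by −2.10 on that reference. Without Tnnc2, which was under the filter, the median was 0.646. The 7 contractile genes that passed the filter had a median log2 difference of −1.68 on 5d, so positive values here stand beside lower levels in PPARγ/+ cells. The mean of the 8 contractile genes was 6.79, 6.10 and 4.51 in WT_5d and 4.01 to 4.29 in PPARγ/+_5d. A gene at equal levels in both cell types would thus come out higher in PPARγ/+ cells here, without overlap. The share of all genes without overlap on this scale was not taken.

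**Figure D3:**
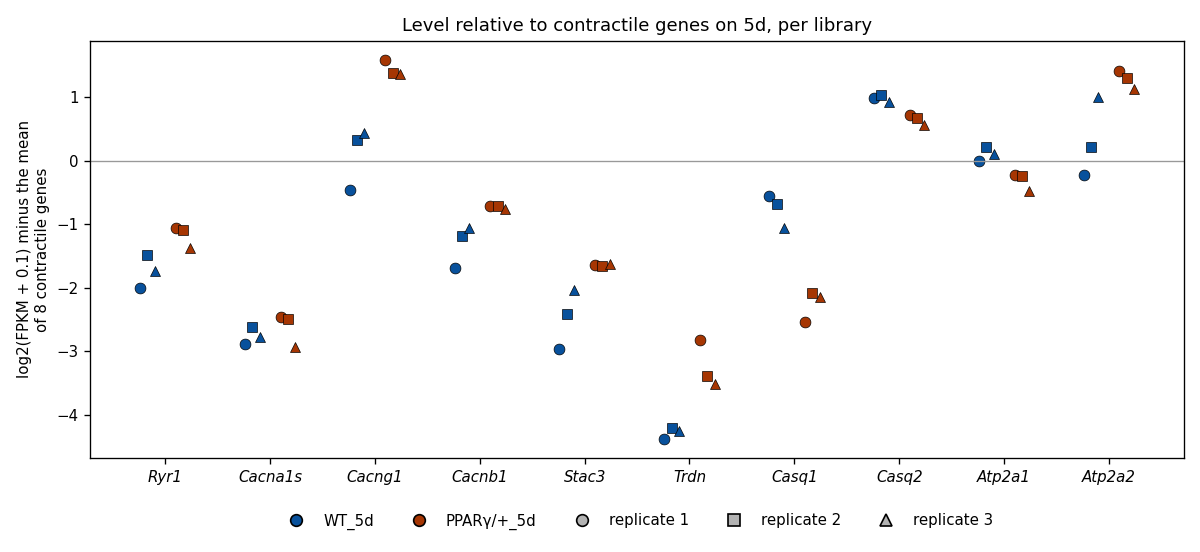
Level of each of the 10 genes on 5d as log2(FPKM + 0.1) minus the mean of 8 contractile genes in the same library, with WT_5d in blue, PPARγ/+_5d in brown and the point shape giving the replicate number. Casq1 lies between −0.56 and −1.05 in WT_5d and between −2.09 and −2.54 in PPARγ/+_5d. Cacng1, Trdn, Atp2a2 and Stac3 lie higher on average in PPARγ/+_5d on this reference and on Myog alone.

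The shares of the paired isoforms also lay apart on 5d. Casq1 made up 25.5%, 23.3% and 20.2% of the summed FPKM of Casq1 and Casq2 in WT_5d and 9.16%, 12.7% and 13.1% in PPARγ/+_5d. Atp2a1 made up 53.9%, 50.2% and 34.9% of the summed FPKM of Atp2a1 and Atp2a2 in WT_5d and 24.3%, 25.3% and 24.6% in PPARγ/+_5d. Neither share overlapped between the cell types, and the exact two-sided permutation test gave p = 0.1 for each, the smallest p that 3 libraries against 3 can give. On 0d the Atp2a1 share was at most 5.02% in WT and 0.662% in PPARγ/+ cells. The Casq1 share on 0d, 8.65% to 38.0% in WT and 30.9% to 44.8% in PPARγ/+ cells, rests on few fragments. These shares were taken up after the values had been seen, so the permutation test adds nothing to the separation itself. How often the shares of other gene pairs lie apart was not counted.

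**Figure D4:**
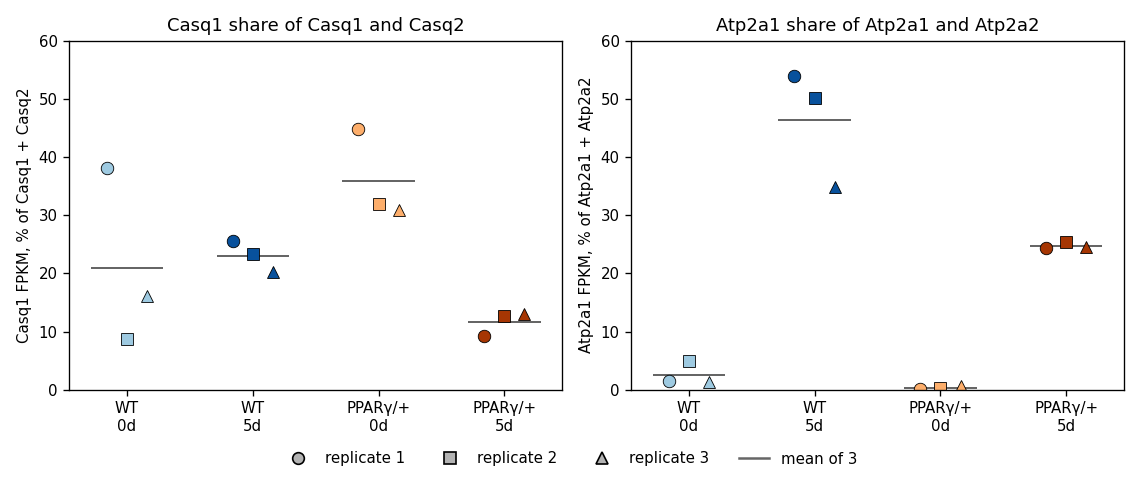
Share of Casq1 in the summed FPKM of Casq1 and Casq2 (left) and of Atp2a1 in that of Atp2a1 and Atp2a2 (right), in percent, with a point per library and a bar at the mean of 3. On 5d the Casq1 share is 20.2% to 25.5% in WT and 9.16% to 13.1% in PPARγ/+ cells, and the Atp2a1 share 34.9% to 53.9% and 24.3% to 25.3%.

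Other genes of the same pathway were taken by list. Of 15 genes of the junction and the T-tubule, 14 were tested, 9 rose in WT and 8 in PPARγ/+ cells, with median log2 changes of 1.60 and 1.24. Over all genes 8.94% and 9.11% were called higher, shares that hold for every list below. Hrc, a calcium-binding protein of the store's lumen, rose by a log2 change of 6.45 in WT (SE 0.78, adjusted p = 0.00162) and 5.84 in PPARγ/+ cells (SE 0.22, adjusted p = 1.6e-05). Cav3, the muscle caveolin, rose by 5.18 (SE 0.72, adjusted p = 0.00265) and 4.09 (SE 0.24, adjusted p = 5.1e-05). Srl, Jsrp1, Tmem38a, Jph2 and Tmem38b also rose in both. Jph1 and Bin1 passed in WT cells, at 1.45 and 1.17, and were at 0.89 and 0.67 in PPARγ/+ cells, while Mtm1 passed in PPARγ/+ cells, at 1.22, and was at 0.86 in WT cells. These differences between the cell types were not called by the interaction test. Fkbp1a, which binds Ryr1 and is made in most cells, was at −0.82 in WT and −0.59 in PPARγ/+ cells, under 2-fold.

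Of 16 isoforms and related channel genes, 9 were tested, and 3 rose in WT (Ryr3, Cacng6 and Cacng7) and 2 in PPARγ/+ cells (Ryr3 and Cacng6), with median log2 changes of 0.68 and 0.58. Ryr3, the release channel of immature muscle, averaged 1.42 FPKM in WT_5d and 1.36 FPKM in PPARγ/+_5d. The heart forms were at or near 0, since Ryr2 averaged at most 0.00683 FPKM and Cacna1c at most 0.00231 FPKM in any group. Cacnb3 and Stac2, relatives of Cacnb1 and Stac3, averaged between 29.8 and 39.7 FPKM and between 32.0 and 44.9 FPKM over the 4 groups, without a call.

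Of 12 genes for regulators of the pumps and cytosolic calcium binding, 9 were tested. Mrln, the micropeptide myoregulin that inhibits the pump, and Pvalb rose in WT cells (log2 changes 1.41 and 1.77), and Mrln alone rose in PPARγ/+ cells (1.25, adjusted p = 0.0564), with Pvalb at 0.27. Sln and Pln, the other pump inhibitors, were under the filter, at 0.0284 FPKM or less on average. Of 18 genes of the general store, calcium entry and extrusion, 16 were tested. Slc8a1, the sodium-calcium exchanger, rose in WT (1.15) and PPARγ/+ cells (1.26), and Atp2b4, a plasma membrane pump, rose in PPARγ/+ cells (1.36) and was at 0.22 in WT cells. The median log2 changes of these 2 lists lay between −0.027 and 0.032 in both cell types. No gene of the 4 lists was called by limma in the interaction or between the cell types on either day. Under the adjusted p alone, without the 2-fold limit, Cacnb3 passed on 5d (−0.38, adjusted p = 0.033) and 8 list genes on 0d, with log2 differences between −0.79 for Atp2b1 and 0.68 for Fkbp1b. The share of all genes under that rule was not taken, so these counts cannot be set against a background. At an unadjusted p under 0.05 on 5d the count was 9 of 14 for the junction list, 2 of 9 for the isoform list, 3 of 9 for the pump regulators and 3 of 16 for the general store, against 15.3% of all genes. In the same order the counts were 3, 3, 1 and 6 in the interaction, against 12% of all genes, and 4, 3, 3 and 8 on 0d, against 21.3%.

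Each member was also matched to the 2 tested genes whose log2(FPKM + 0.1) followed it most closely over the 12 libraries, among 12400 genes with a mean of at least 1 FPKM in a group. These correlations describe groups that lie far apart on 0d and 5d. Ryr1 was followed by Myl1 (r = 0.997) and Ttn (r = 0.996), Cacna1s by Tnnt3 and Myl4 (both r = 0.998), Cacnb1 by Neb (r = 0.992), and Atp2a1 by Tnnt1 (r = 0.998) and Tnni2 (r = 0.997). Most of these encode sarcomere proteins. Genes of the store were among those that followed Trdn, with Srl and Actn3 (both r = 0.994), Casq1, with Tmem38a (r = 0.993), and Casq2, with Hrc and Trim72 (both r = 0.998). Cacng1 was followed by Chrna1, the alpha subunit of the muscle acetylcholine receptor (r = 0.988), and by H19 (r = 0.982), and Stac3 by Rab44 (r = 0.990) and Tmod1 (r = 0.988). Atp2a2 was followed by Ptp4a2 (r = 0.979) and Mef2c (r = 0.976). Among the 10 genes the 45 pairwise correlations ran from 0.71 for Atp2a2 with Trdn to 0.997 for Casq2 with Cacna1s.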

How the data were processed

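RNA of 12 C2C12 libraries was sequenced after a TruSeq preparation. After trimming (Trim Galore) and alignment (STAR), the authors counted genes with HTSeq and deposited FPKM for 46983 genes, which were used here. A further deposited table of log2(FPKM + 1) was not used. The methods name GRCm38 and the labels mm9. The tables carry no coordinates, and positions here are those of GRCm38.

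Genes with at least 0.1 FPKM in at least 3 libraries were tested with limma (3.58.1, R 4.3.3, trend) on log2(FPKM + 0.1). Changes from 0d to 5d were fitted on the 6 libraries of a cell type and called at an unadjusted p of at most 0.05 and 2-fold, as the study did. The interaction and the comparisons between cell types used 12 libraries and a Benjamini-Hochberg adjusted p of at most 0.05, the latter also 2-fold. Fragments are FPKM times exonic length times implied depth. Among detected genes, leaving out those with many fragments, 80.0% to 81.6% gave whole fragments within 0.02. Fragments are printed only for genes that gave whole fragments, within a limit that widened at higher counts. Raw counts were not analysed here. The fits were tested on simulated data.

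Named genes are the 10 members, label checks, called list genes, the largest and smallest changes of a list, and each member's 2 most alike genes, of which some are not reported here. Members and lists were chosen with earlier results of these data known. Alternatives were other pseudocounts, filters, scaling, a replicate block, other sets of libraries and leaving out libraries.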

Additional observations from a re-analysis of the deposited data

How the results depend on the processing

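Of 930 alternative values for the 50 fitted differences, 867 kept direction and side of the threshold, 12 lost and 28 gained a call and 23 changed sign, all of them uncalled. Of 80 for the 10 relative levels, 9 moved beyond the replicate SD, all against Myog alone, and 3 of these changed sign (Ryr1, Cacnb1 and Cacna1s). Among the 23 sign changes of fitted differences, those in the interaction included Ryr1 (−0.42), Trdn (−0.36) and Atp2a1 (−1.15) with a pseudocount of 1 and Cacna1s (0.0018) with 0.01. They also included Ryr1 (−1.03), Cacng1 (−0.37), Trdn (−0.88) and Atp2a1 (−1.11) without both WT_0d replicate 2 and WT_5d replicate 3. The rest in the interaction, for Ryr1, Trdn and Atp2a1, came with 1 library left out. With each library left out in turn, the interaction ran from −0.39 to 0.85 for Ryr1, −0.54 to 0.54 for Trdn, −0.48 to 0.61 for Atp2a1 and 0.019 to 0.81 for Cacng1. On 0d the difference ran from −0.40 to 0.24 for Stac3, also 0.24 without both libraries, and from −0.40 to 0.11 for Casq1.

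Among all genes, a pseudocount of 1 called 1441 in WT over time, 1241 in PPARγ/+ over time, 95 on 5d and 120 on 0d. A filter at 1 FPKM called 1806 in PPARγ/+ over time and 93 on 5d. Fewer genes are tested under that filter, and for the rest the cause was not tested. Fitting only the libraries of 5d called 28 genes and 0 members. On 0d, 1 member, Atp2a1, was called with a pseudocount of 0.01 (−2.89, adjusted p = 0.02986) and with the filter at 1 FPKM (adjusted p = 0.03963). Without both libraries named above, 5 members and 488 genes were called in the interaction, 9 members and 821 genes on 5d and 1 member on 0d. The median relative level was −0.033 against Myog alone. Without a filter on low genes, Cacng1 lost its call in WT cells. With each library left out in turn, members called ran from 8 to 9 in WT over time, stayed at 9 in PPARγ/+ over time, and ran from 0 to 2 in the interaction, 0 to 8 on 5d and 0 to 1 on 0d. All genes called ran from 2765 to 3057, 2535 to 2829, 42 to 527, 78 to 796 and 180 to 491. The highest interaction and 5d counts were without WT_5d replicate 3, and the median relative level ran from 0.417 to 0.672.

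Libraries with the same replicate number deviated together weakly or not at all (r from −0.068 to 0.083 over 12 pairs of groups and numbers). In 10 of 24 comparisons a library was closest to its own number. Between PPARγ/+_0d and PPARγ/+_5d this held for 6 of 6, with r from 0.034 to 0.083, and for 2 of 6 between WT_0d and WT_5d. The labels do not state a pairing, and the numbers were not used as pairs in the main fits. A replicate block called 61 genes in the interaction where 137 were called without it, and no member changed its call. Genes at few fragments on 0d, Casq1 and Cacna1s among them, have changes that depend on the pseudocount.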
